A study of Mus musculus with 6 samples.

Results

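The genes described here are 10 dual-specificity phosphatases that act on MAP kinases, Dusp1, Dusp2, Dusp3, Dusp4, Dusp5, Dusp6, Dusp7, Dusp8, Dusp10 and Dusp16. They were taken by symbol from a table of 20494 gene clusters, in which each of the 10 had 1 row and an adjusted p-value. The table comes from RNA-seq of whole lung of 4-month-old male C57BL/6 mice without treatment, 3 libraries from lincRNA-Cox2 knockout mice and 3 from wild type mice. The labels do not say how the knockout allele was made. LincRNA-Cox2 is a long noncoding RNA made next to Ptgs2, the gene of the inducible cyclooxygenase, and the study compared lungs with and without it.

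MAP kinases pass signals from growth factors, cytokines and stress to the nucleus once they carry phosphate on both a threonine and a tyrosine of their activation loop. Dual-specificity MAP kinase phosphatases remove both phosphates and so end the signal. Several of their genes are themselves switched on by MAP kinase signalling, which makes them a negative feedback, and in lung and immune cells they limit the length of inflammatory responses. The family is usually grouped by place and substrate. Dusp1, Dusp2, Dusp4 and Dusp5 are inducible and nuclear, Dusp6 and Dusp7 are cytoplasmic and prefer ERK, and Dusp8, Dusp10 and Dusp16 prefer JNK and p38. Dusp3 is a small enzyme without the MAP kinase binding domain of the others.

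The sequences just before the transcription start are shown for 4 genes because they differ in the sites through which cAMP and growth signals are known to reach such genes. RefSeq (GRCm38.p6, the mm10 build) gave a promoter for 9 of the 10 genes. Each sequence is the 250 bases before the start, 5′ to 3′ on the gene's own strand. For Dusp3, Dusp7, Dusp8 and Dusp16 the start used lies inside the gene's RefSeq span and is not its outermost one. Capitals mark matches to the cAMP response element TGACGTCA, its half-site TGACG, the AP-1 site TGANTCA and the CArG box, which binds serum response factor. Dusp1 is at chr17:26508473-26508722 on the minus strand, Dusp2 at chr2:127335909-127336158 on the plus strand, Dusp5 at chr19:53528895-53529144 on the plus strand and Dusp8 at chr7:142095285-142095534 on the minus strand.
Dusp1: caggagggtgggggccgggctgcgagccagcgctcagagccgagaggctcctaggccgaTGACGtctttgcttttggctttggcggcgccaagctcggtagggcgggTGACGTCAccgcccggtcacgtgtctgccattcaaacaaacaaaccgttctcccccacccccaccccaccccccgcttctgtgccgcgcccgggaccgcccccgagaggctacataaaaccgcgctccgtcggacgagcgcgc
Dusp2: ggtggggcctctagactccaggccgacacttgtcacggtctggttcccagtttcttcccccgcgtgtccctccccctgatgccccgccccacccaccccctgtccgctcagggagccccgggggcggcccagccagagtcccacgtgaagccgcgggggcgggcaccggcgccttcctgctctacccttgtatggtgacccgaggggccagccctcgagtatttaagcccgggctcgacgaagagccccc
Dusp5: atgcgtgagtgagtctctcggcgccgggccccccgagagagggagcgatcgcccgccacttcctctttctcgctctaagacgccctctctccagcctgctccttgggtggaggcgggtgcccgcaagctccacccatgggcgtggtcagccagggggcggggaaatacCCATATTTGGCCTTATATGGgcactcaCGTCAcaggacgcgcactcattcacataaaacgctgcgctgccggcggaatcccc
Dusp8: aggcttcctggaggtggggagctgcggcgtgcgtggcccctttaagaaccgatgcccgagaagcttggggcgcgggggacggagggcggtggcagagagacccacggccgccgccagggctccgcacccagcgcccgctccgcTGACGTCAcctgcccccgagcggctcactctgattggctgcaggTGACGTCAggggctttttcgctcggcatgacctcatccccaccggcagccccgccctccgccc

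The full cAMP response element was found in 2 of the 9 promoters, once in Dusp1, with its first base 143 bases before the start, and at 2 places in Dusp8, at 107 and 63 bases before it. Of 32851 RefSeq windows of the same length, 1.55% held that element on either strand. Each full element also holds the half-site on both strands. The half-site was in 4 of the 9 promoters, Dusp1, Dusp5, Dusp8 and Dusp16, and in 17.8% of all windows. Dusp5 alone of the 9 held CArG boxes, 2 in a row at 82 and 72 bases before the start, against 1.47% of all windows with at least 1. The Dusp2 window held none of the motifs in capitals. It did hold the E-box CACGTG, as did that of Dusp1 (6.02% of all windows). The AP-1 site was in 0 of the 9 and in 6.75% of all windows. The GC box GGGCGG was in 7 of the 9 and in 32.7% of all windows, and the TATA box TATAAA in 0 of the 9 and in 12.4%. A match to letters is a description, not a site shown to be bound. The RefSeq start of Dusp8 and of Dusp16 was not found in a GENCODE M21 transcript, while the other 7 were.

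The group means summed to 37118488 normalized counts in wild type and 36839329 in knockout, sums that the scaling brings close at any depth. The 6 size factors derived from the means lay between 0.961 and 1.025, so the libraries were of like depth. The group means matched the labels for the targeted gene, whose mean per the authors' deposited table was 311 normalized counts (reads scaled by each library's size factor) in wild type and 0.666 in knockout. Ptgs2 was 2929 and 298 per the authors' deposited table. Lung markers were abundant, with alveolar type 2 genes summing to 370977 in wild type and 381903 in knockout. Among 17 cell type lists 0 group means were at 0, which says little of tissue. Ucp1 of the adipocyte list, at 0.659 in wild type and 0.980 in knockout per the authors' deposited table, was also above 0. Neutrophil genes were the list with the most called genes, with 8 of 12 tested genes called higher in knockout and 0 lower (called means an adjusted p under 0.05 in the authors' DESeq2 comparison). Of all tested clusters, 1.09% were called and 8.47% had an unadjusted p under 0.05 in that comparison. Among the 8 smooth muscle genes, all had a lower mean in knockout. Of these, 5 had an unadjusted p under 0.05 in the same comparison, and 1 was called, Lmod1. In the B and plasma cell and the monocyte lists 1 gene each was called, Igj higher and Nr4a1 lower. The monocyte list was split, with 2 genes higher and 2 lower at an unadjusted p under 0.05 in that comparison. Nr4a1 is also among the early response genes named below. In the other 13 lists the authors' DESeq2 comparison called 0 of 90 tested genes, and 9 had an unadjusted p under 0.05. Of those lists, 5 further genes had no adjusted p, and 4 of these were the mesothelial genes Msln, Upk3b, Wt1 and Lrrn4, which had no p at all. Their knockout means were 5.44, 9.60, 7.34 and 8.46 times the wild type means per the authors' deposited table. The tested genes of the mesothelial list did not rise there, Krt19 averaging 6023 in wild type and 6006 in knockout, and Upk1b 939 and 916. For Wt1 single libraries, called A, B and C here and matching no sample label, could be derived in the way described for Dusp2, since only 1 set of whole reads gave each mean. They had 10.8, 12.9 and 3.1 normalized counts in wild type libraries A, B and C and 27.3, 134.2 and 35.8 in those of the knockout. Knockout library B thus stood apart from the other 2 in this mesothelial gene.

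The phosphatases spanned a wide range of levels in wild type lung. Levels are compared as normalized counts per kb of the principal GENCODE M21 transcript. Dusp1 was highest at 11812 per kb and made up 63.0% of the summed level of the 10 genes on this scale, against 50.9% in knockout. Dusp3 followed at 2459 per kb, then Dusp6 at 1531 and Dusp7 at 1493. Dusp16 stood at 584, Dusp8 at 298, Dusp4 at 230, Dusp2 at 152, Dusp10 at 109 and Dusp5 at 71.8 per kb. Dusp1 was therefore 165 times Dusp5 per kb in wild type. Dusp6 and Dusp7, the cytoplasmic ERK phosphatases among the 10, differed by 2.52%, less than the spread between libraries derived for them below (5.62%). Every other pair of neighbours in this order differed by more than its larger spread. No source used here gives the lengths of the gene models that the authors counted, so the order per kb rests on the annotation.

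**Figure D1:**
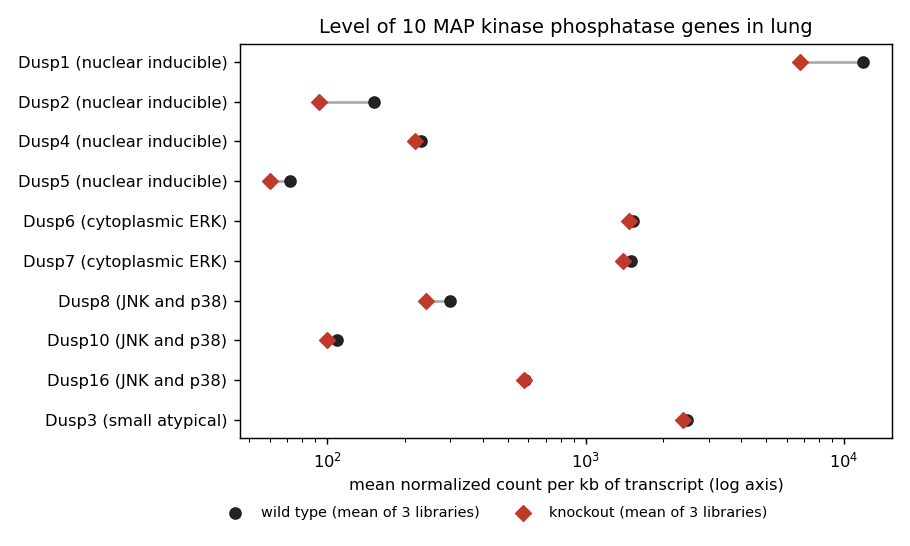
Mean normalized count per kb of transcript (log axis) of the 10 genes in wild type (black circles) and knockout (red diamonds) lung, each the authors' mean of 3 libraries. The red marker lies left of the black one for each gene, with the widest gaps at Dusp1 (11812 and 6770 per kb) and Dusp2 (152 and 92.7 per kb).

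Across the members the knockout mean was below the wild type mean for 10 of 10 genes, where 50.6% of all 16902 tested clusters were below. Dusp9, a related ERK phosphatase outside the 10, averaged 50.7 in wild type and 68.5 in knockout per the authors' deposited table. One gene, Dusp2, fell past the threshold (1 of 10 called lower, against 0.497% of all tested clusters called lower and 1.09% in either direction). At an unadjusted p under 0.05 there were 3, Dusp1, Dusp2 and Dusp8, all lower, where 4.04% of all tested clusters were lower and 8.47% passed in either direction. The median log2 ratio of group means, knockout over wild type, was -0.11 over the 10 genes and -0.0013 over all tested clusters. The genes were chosen with earlier results of these data known, so these counts describe the family and are no test of it. In whole lung, fewer cells of a type and less RNA per cell cannot be told apart.

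Among the inducible nuclear phosphatases, Dusp2 fell in knockout, and Dusp1, whose means lay further apart, did not pass the adjusted test, nor did Dusp4 and Dusp5. Dusp2 (kgCluster16648, chromosome 2 from 127336159 to 127338377, plus strand) encodes a nuclear phosphatase first known from activated lymphocytes that acts mainly on ERK. Its mean was 245 normalized counts in wild type and 150.0 in knockout per the authors' deposited table, 61.2% of the wild type level. The 95% interval of that ratio, from the authors' Wald statistic, was 47.8% to 78.3%. The shrunken log2 fold change per the authors' deposited table was -0.33 ± 0.085 (SE), with an adjusted p of 0.0142 in the authors' DESeq2 comparison, and Dusp2 ranked 113 among all clusters by p.

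Single libraries of Dusp2 could be derived in part, since each group mean is a sum of whole reads weighted by 1 size factor per library. For the knockout, exactly 1 set of reads gave the printed mean, 138, 161 and 154 reads in the 3 libraries, or 134.6, 157.7 and 157.5 normalized counts. For wild type 5 sets of reads gave the printed mean within its rounding. The evenest of them was 305, 236 and 193 reads (300.2, 234.5 and 200.8 normalized counts), and the most uneven was 269, 412 and 59 reads (264.8, 409.3 and 61.4). The other sets were 282.5, 321.9 and 131.1, then 318.0, 147.0 and 270.5, then 335.7, 59.6 and 340.2 normalized counts. In each of the 5 sets at least 2 of the 3 wild type libraries lay above all 3 knockout libraries. In the evenest set the groups did not overlap, and in the other 4 the lowest wild type library fell below the highest knockout library. The share of all clusters whose libraries separate in this way was not counted. The coefficient of variation, counting error included, was 8.86% over the knockout libraries and between 20.6% and 71.3% over the wild type sets. The interval and adjusted p of Dusp2 rest on a fitted spread shared by both genotypes, 13.6% beyond counting error. That is lower than the spread of every possible wild type set and higher than that of the knockout set.

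**Figure D2:**
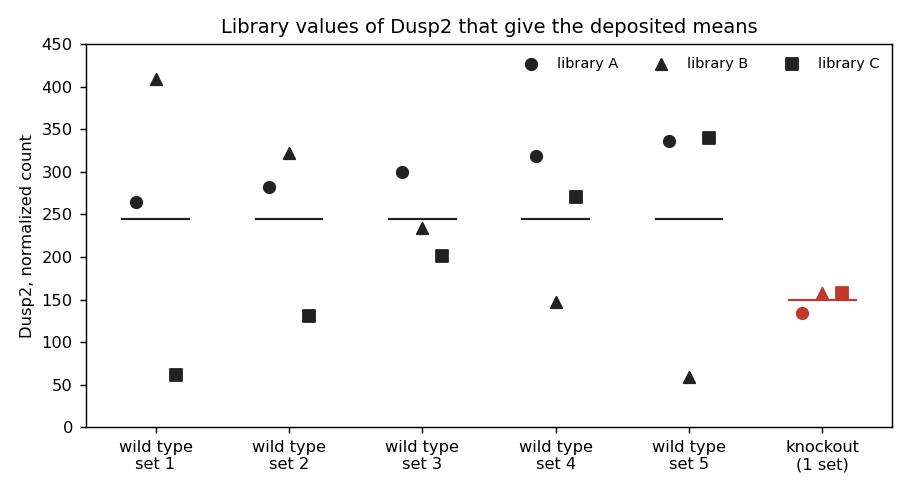
Normalized counts of Dusp2 in libraries A, B and C of each genotype (circle, triangle, square) for each set of whole reads that gives the deposited group mean, which is drawn as a line. The knockout (red) has 1 set, between 134.6 and 157.7, and wild type (black) has 5 possible sets, each with at least 2 libraries above the knockout.

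Dusp1 (kgCluster11790, chromosome 17 from 26505591 to 26508472, minus strand) is an immediate-early gene whose product switches off p38, JNK and ERK and which glucocorticoids also induce. Its means lay furthest apart in the family, but it was not called. Its mean per the authors' deposited table was 23506 normalized counts in wild type and 13472 in knockout, 57.3% of the wild type level with a 95% interval of 39.9% to 82.3%. The shrunken log2 fold change per the authors' deposited table was -0.23 ± 0.077 (SE), with an unadjusted p of 0.00253 and an adjusted p of 0.128. The shrinkage kept 0.290 of the log2 ratio of means for Dusp1 and 0.465 for Dusp2, so the gene with the larger ratio has the smaller shrunken value. That share is low where libraries differ much among themselves or reads are few, and at the level of Dusp1 reads are many. Single libraries are given for no member but Dusp2, since the next lowest genes, Dusp5 and Dusp10, already had between 26 and 128 possible sets of reads per genotype and the other genes have higher means.

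In each pair of means from here on, wild type stands first. Dusp4, another nuclear phosphatase (kgCluster28034, chromosome 8), averaged 629.7 normalized counts in wild type and 599 in knockout per the authors' deposited table (adjusted p = 0.991). Dusp5 (kgCluster14759, chromosome 19), which acts on ERK alone and also anchors it in the nucleus, averaged 177 and 148 per the authors' deposited table (unadjusted p = 0.206, adjusted p = 0.886). The interval of its ratio ran from 63.1% to 110% of wild type, which includes no difference and ends just above the ratios of Dusp1 and Dusp2. For Dusp4 the interval was narrower, 82.2% to 110%. An antisense gene model overlaps exons of Dusp5, as also of Dusp3 and Dusp8, and without strand the reads of such partners cannot be told apart.

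Dusp6 and Dusp7, the cytoplasmic ERK phosphatases among the 10, were both abundant, and neither was called. Dusp6 (kgCluster2949, chromosome 10) encodes the classical feedback phosphatase of the growth factor pathway, and averaged 4280.1 and 4105 per the authors' deposited table, with an interval of 87.8% to 105% of wild type and an adjusted p of 0.959. Dusp7 (kgCluster30683, chromosome 9), its close relative, averaged 4797 and 4502 per the authors' deposited table, with an interval of 85.5% to 103% and an adjusted p of 0.859. Neither interval reached the ratio seen for Dusp1 or Dusp2.

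Of the JNK and p38 phosphatases, Dusp8 was the lowest in knockout relative to wild type. Dusp8 (kgCluster27614, chromosome 7) averaged 1432 and 1158 per the authors' deposited table, 80.8% of wild type with an interval of 67.1% to 97.4%. Its shrunken log2 fold change per the authors' deposited table was -0.19 ± 0.083 (SE), with an unadjusted p of 0.0252 and an adjusted p of 0.460, so it was not called. Dusp10 (kgCluster1555), which restrains JNK in immune cells, averaged 305 and 279 per the authors' deposited table (interval 76.4% to 110%, adjusted p = 0.949). It is the gene of the family on chromosome 1, which also holds lincRNA-Cox2 and Ptgs2, and begins 33.9 Mb from the start of Ptgs2. Dusp16 (kgCluster24685, chromosome 6), a shuttling phosphatase of JNK, averaged 2979 and 2942 per the authors' deposited table (interval 89.8% to 109%, adjusted p = 0.997). Dusp3 (kgCluster4987, chromosome 11), the small enzyme active on ERK and JNK, averaged 10928 and 10541 per the authors' deposited table, with an interval of 87.9% to 106% and an adjusted p of 0.980.

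**Figure D3:**
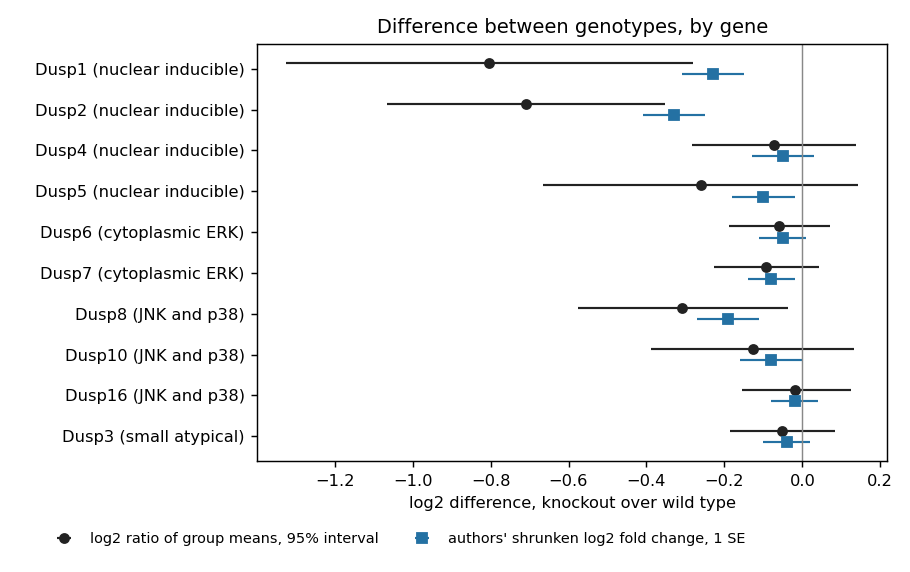
Difference between knockout and wild type on the log2 scale for each gene. Black circles are log2 ratios of the group means with 95% intervals and blue squares the authors' shrunken log2 fold changes with 1 SE. The intervals of Dusp1, Dusp2 and Dusp8 lie below 0 and those of the other 7 include it.

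The genes also differed in how much their libraries varied, which the rule did not use. The ratio of means divided by the Wald statistic gives its standard error, and from that a coefficient of variation between libraries beyond counting error was derived for each gene, 1 value for both genotypes together. DESeq2 pulls this quantity towards that of genes of like level, so it is the authors' fitted spread and not that of the raw values. Dusp1 had the highest value of the family at 22.6%, followed by Dusp5 at 15.6%, Dusp2 at 13.6% and Dusp8 at 11.3%. Dusp10 had 9.64%, Dusp4 8.19%, and Dusp3, Dusp6, Dusp7 and Dusp16 lay between 5.31% and 5.74%. Since spread falls with level, each gene was set beside tested genes with a mean between 0.5 and 2 times its own. Dusp1 lay at percentile 98.2 of 505 such genes, whose median was 5.09%. Dusp8 lay at percentile 97.5 (median 6.14%), Dusp5 at 82.7 and Dusp2 at 76.0, while Dusp6 lay at 55.7 and Dusp10 at 47.7.

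**Figure D4:**
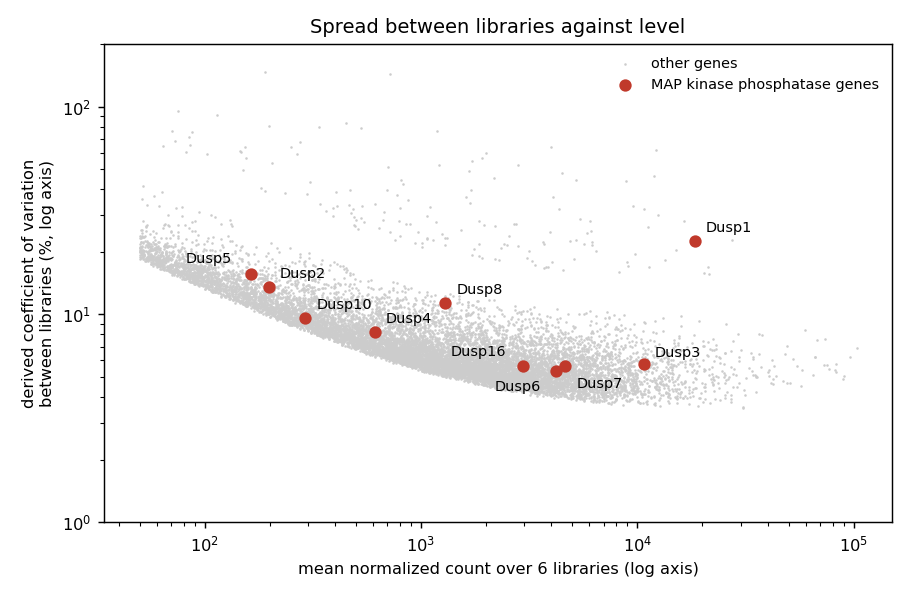
Derived coefficient of variation between libraries (%, log axis) against the mean normalized count over 6 libraries (log axis) for tested genes with a mean of at least 50 (grey) and the 10 phosphatase genes (red). Dusp1, at 22.6%, stands well above genes of its level, Dusp8 at the upper edge of the cloud, and the other genes within it.

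The genes of Dusp1's level that varied at least as much were few, and they were named after their values were seen. Apart from Dusp1 there were 8 of them, 7 with a lower mean in knockout. These 8 included the transcription factor genes Nr4a1 at 33.3%, Egr1 at 30.1%, Fos at 28.2% and Junb at 26.4%, and the growth inhibitor Btg2 at 22.9%, all known as early response genes. Other early response genes of like level lay below Dusp1, with Zfp36 at 20.4%, Jun at 17.0%, Cyr61 at 15.9% and Klf6 at 7.07%, and no list of such genes was compared. The other 3 of the 8 were the airway secretory gene Bpifa1 (61.6%), the heat shock gene Hspa1b (46.2%) and Igfbp5 (32.2%), an IGF binding protein. Wild type exceeded knockout by 1.76 times for Btg2, 1.77 times for Junb and 1.98 times for Fos in the authors' deposited table, beside 1.74 times for Dusp1, and these 3 were not called either (adjusted p = 0.127, 0.255 and 0.149 in the authors' DESeq2 comparison). Nr4a1 and Egr1 were called, with adjusted p-values of 0.00256 and 0.0464 there.

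The rest of the MAP kinase pathway was compared through 9 lists chosen with earlier results of these data known, which held 100 tested genes beside the family. Of the 100, 0 were called in the authors' DESeq2 comparison, and 13 had an unadjusted p under 0.05, 10 lower and 3 higher, beside 1.09% of all tested clusters called, 8.47% under that p and 4.04% under it and lower. The knockout mean was lower for 64.0% of them, beside 50.6% of all tested clusters, and their median log2 ratio was -0.03. The closest relatives, other Dusp genes and the pseudophosphatases Styx and Styxl1, had 6 of 13 tested genes with a lower mean and 7 with a higher one (median log2 ratio 0.01). Dusp11, an RNA phosphatase, had the lowest p of them, averaging 6741 and 6069 per the authors' deposited table (adjusted p = 0.189). Dusp23, on chromosome 1 at 22.5 Mb from the start of Ptgs2, averaged 371 and 287 per the authors' deposited table (adjusted p = 0.391).

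Dusp9, an ERK phosphatase closely related to Dusp6 and Dusp7 that is not among the 10, was low and went the other way. It averaged 50.7 in wild type and 68.5 in knockout per the authors' deposited table (unadjusted p = 0.0935, adjusted p = 0.728). Only 1 set of reads per genotype gave these means, 53, 45 and 53 reads in wild type and 64, 76 and 67 in knockout. As normalized counts these were 52.2, 44.7 and 55.1 against 62.4, 74.4 and 68.5, and the gene was not called.

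Among the MAP kinases and the kinases upstream of them, medians lay near 0 and no gene was called. Of 13 MAP kinase genes, 10 had a lower knockout mean and 0 passed an unadjusted p under 0.05 (median log2 ratio -0.03). Mapk8, which encodes a JNK, had the lowest p, averaging 1231 and 1136 per the authors' deposited table (adjusted p = 0.798). Of 7 MAP kinase kinases 5 were lower and 0 passed an unadjusted p under 0.05 (median -0.04), Map2k5 having the lowest p (adjusted p = 0.852 per the authors' deposited table). Among 19 MAP kinase kinase kinases and Raf genes 12 were lower (median -0.04), and 4 passed an unadjusted p under 0.05, 2 in each direction. Of those, Map3k2 had the lowest p, averaging 2795 and 3181 per the authors' deposited table (adjusted p = 0.400).

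Downstream of the MAP kinases and around them, no gene was called either. In the list of kinases that MAP kinases activate, 6 of 11 were lower (median log2 ratio -0.01), and Rps6ka3 averaged 1711 and 2031 per the authors' deposited table (adjusted p = 0.398). Of 15 tested ERK feedback and output genes, such as the Sprouty genes, 9 were lower (median -0.03). Ier3, an early response gene that prolongs ERK activity, averaged 5152 and 4444 per the authors' deposited table (adjusted p = 0.139). Of 5 tested scaffold genes 3 were lower (median -0.03), with Mapk8ip3 at 5666 and 5207 per the authors' deposited table (adjusted p = 0.475). The 3 tyrosine phosphatases of MAP kinases had a median of 0.07, and Ptpn7, the one of lymphoid cells, averaged 513 and 556 per the authors' deposited table (adjusted p = 0.923). Among 14 transcription factors known to act, or to act with factors that act, on phosphatase genes of this family, 12 had a lower knockout mean (median -0.10), with Srf, the factor of the CArG box, at 2927 and 2586 per the authors' deposited table (adjusted p = 0.517).

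**Figure D5:**
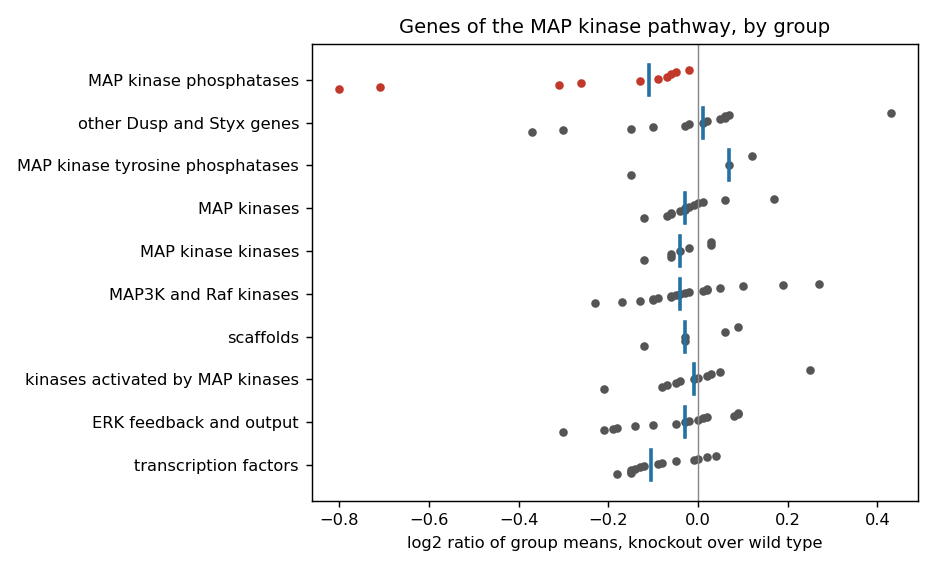
Log2 ratio of group means, knockout over wild type, for tested genes of each group (points, 1 per gene) with the group's median (blue bar). The 10 phosphatase genes (red) lie between -0.80 and -0.02 with a median of -0.11, and the other groups have medians between -0.10 and 0.07.

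Markers of cell types differed in direction, and which cell types carry these phosphatases was not determined here. Of all tested clusters, 50.6% had a lower mean in knockout. T cell genes, of interest beside Dusp2 and Ptpn7, had 6 of 12 means lower in knockout, none called and 1 at an unadjusted p under 0.05 by the DESeq2 comparison of the authors, and sums of 5355 and 5342 normalized counts. B and plasma cell genes were lower for 9 of 10, with sums of 12531 and 13468 that Igj raised. Neutrophil genes summed to 13917 in wild type and 18292 in knockout. Alveolar macrophage genes were lower for 2 of 9, alveolar type 2 genes for 1 of 8 and red cell genes for 0 of 4. Lower means were found for 4 of 8 NK cell, 4 of 8 monocyte and 3 of 6 platelet genes. The same held for 4 of 6 alveolar type 1, 3 of 6 ciliated and 2 of 5 club cell genes. Endothelial genes were lower for 9 of 10 (sums of 196147 and 185012), smooth muscle genes for 8 of 8 (31391 and 26614), and fibroblast genes for 7 of 8 (82604 and 75867). Adipocyte genes were lower for 6 of 6 tested genes, with a median log2 ratio of -0.76 and sums of 5261 and 3336, and the DESeq2 comparison of the authors called 0 of them, with 1 below 0.05 before adjustment. Mesothelial genes were lower for 2 of 2 tested genes, but with the 4 that had no p the list summed to 7467 in wild type and 10516 in knockout. In knockout library B, where Wt1 was highest, Dusp2 was 157.7 normalized counts, beside 134.6 and 157.5 in the other 2. The part of these shifts in the lower Dusp1, Dusp2 and Dusp8 means was not tested.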

How the data were processed

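Whole-lung RNA of 6 samples, 3 per genotype, was read as 50 bp paired ends after TruSeq RNA v2 preparation, a kit that does not mark strand, per the labels' protocols. The samples were taken here as separate mice. Per the submitters' processing notes, STAR 2.5.1b, Bowtie2, bedtools, SAMtools and DESeq2 were used by the authors with the mm10 build. The counting rule and library totals are not stated in what was used here. Per the file headers, the authors deposited 1 table of group means, a signal in normalized counts. The authors also deposited a shrunken log2 fold change with its standard error, a Wald score, and p-values before and after adjustment. Calls rest on that DESeq2 comparison by the authors, and no test between libraries was run. The labels give no batch or pairing. The authors' p-values weigh each difference against a fitted spread between these libraries, which is pulled towards that of genes of like level.

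Computed here (Python 3.11.15, scipy 1.17.1) were log2 ratios of means, with the ratio over the Wald statistic as standard error. The prior precision this implies was 34.8 at the median and 34.1 to 35.5 between percentiles 5 and 95 of 12307 genes, so 1 shared prior described the shrinkage. Genes with an absolute Wald statistic above 0.25 entered comparisons of spread. Exactly 1 set of whole reads fitted each non-zero mean up to 40, of which wild type had 4901 and knockout 4877. Derived libraries A, B and C match no sample label. Both derivations were tried on simulated data, within limits. For the spread, the simulated fit was given the true spread and a fixed prior, so the estimation of spread by DESeq2 was not simulated. For the reads, only means up to 40 were checked, below those of Dusp2 and Dusp9 and the knockout mean of Wt1.

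Places and promoters are from RefSeq GRCm38.p6, lengths from GENCODE M21. A symbol on more than 1 row was represented by its most abundant row. The members, lists and motifs were chosen with earlier results of these data known. Named genes are the 10 members, called genes of each pathway list or else the one with the lowest p, and others where stated. Alternatives were other thresholds, other sets of genes in the adjustment, ratios of means, rescaled means and all rows of a symbol.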

Additional observations from a re-analysis of the deposited data

How the results depend on the processing

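At an adjusted p under 0.01, 101 clusters were called in place of 184, and 0 of the 10 phosphatase genes in place of 1, since Dusp2 had 0.0142. At 0.1, 300 clusters were called, and Dusp2 was still the 1 phosphatase gene among them. Adjusting over every cluster with a p-value gave Dusp2 0.0172 and Dusp1 0.155, and adjusting over clusters with a mean of at least 50 gave 0.0132 and 0.120. All 10 genes were lower in knockout with the shrunken fold change, the ratio of means and rescaled means. These could hardly differ, since shrinkage keeps the sign of the ratio and the median log2 ratio set to 0 by rescaling was -0.0013. Of 62 comparisons of single genes and their median with an alternative, 61 kept direction and side of the threshold, the exception being Dusp2 at 0.01. Most of the 62 reuse the same deposited p-values or fold changes and could not have moved, so this count shows no robustness. No paired analysis was possible because the table holds no library columns. The planned limma fits and the fits without each library were not run, since library values could be derived for low genes only.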
